A study of Mus musculus with 2 samples.

Results

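The S100 genes encode small calcium-binding proteins of the EF-hand class, and 10 of them were followed here through the first day of mammary gland regression in the mouse: S100a1, S100a4, S100a6, S100a8, S100a9, S100a10, S100a11, S100a13, S100a14 and S100a16. Members were taken by the gene symbol that the platform annotation gives to a probe set, a group of short array probes that read the same transcript. By that rule 9 of the 10 genes had a probe set with their symbol alone, 13 probe sets in all, out of 18193 named genes on the array. S100a11 had none, because its probe set is annotated to S100a11 together with the pseudogenes S100a11-ps and Gm12854, so that probe set is given apart and counted for no gene. S100a8 and S100a9, typical of myeloid cells, were set against the other 8, which are known from epithelial and stromal cells.

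Both groups were female CD1 mice, an outbred stock, bought at 6 weeks of age and nursing litters set to 6 pups until weaning was forced. The day 1 group was killed 1 day after the pups were removed at day 10 of lactation, and the day 0 group on the day of removal. For each day the RNA of 5 mice was pooled, and each pool was read on 1 Affymetrix array of the whole mouse genome, so there are 2 arrays and no replicates. No test, SD or p-value between days is possible, and every difference is one between 2 pools. Values are MAS 5 signals, a linear intensity scaled per array. Ratios are on the log2 scale, day 1 over day 0, after signals under 77.7, the median of all signals, were raised to that floor. Genes above the floor on at least 1 day count as measured, and those at the floor on the other day have only a bound, written "at least". RNA of whole glands cannot tell more cells of a type from more RNA per cell.

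Most S100 proteins work as dimers that change shape on binding calcium and then grip a target protein. S100A8 and S100A9 pair as calprotectin, which fills the cytosol of neutrophils and monocytes and is released as an alarm signal that sequesters metal ions and engages Toll-like receptor 4. S100A10 does not depend on calcium and binds annexin A2 at the membrane, S100A11 binds annexin A1, and S100A4 binds the heavy chain of non-muscle myosin. Involution of the mammary gland begins with epithelial cell death and Stat3 activation, and phagocytes arrive later.

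All 9 of these members were measured, and 6 of them had a day 1 signal at least 2-fold above that of day 0, while 0 were lower by that much. Over all 13239 measured genes, 10.4% were higher by this threshold and 13.3% lower. The members' log2 ratios had a median of 1.34 and a range of 0.11 to 3.39, against a median of -0.12 over all measured genes. S100a8 and S100a14 exceeded the floor on day 1 alone, so the direction of their ratios was fixed by the way genes were counted as measured. The other 7 were above the floor on both days, 4 of them at least 2-fold higher. Their ratios stayed above 0 after quantile normalization and loess. The remaining scalings all raised day 1 over day 0, so they could not turn a ratio above 0. S100a1 was at -0.01 with the mean of all probe sets and -0.28 without probe sets shared between transcripts. The 6 members at least 2-fold higher were S100a14, S100a10, S100a8, S100a16, S100a6 and S100a4. The other measured members, S100a13, S100a1 and S100a9, were under 2-fold. The brightest member probe set reached 9.78% of the highest signal on day 1 (40090.2) and 2.10% of that on day 0 (108570.5). On day 1 it was that of S100a10 (3921.5), and 98.1% of all probe sets were dimmer. On day 0 it was that of S100a1 (2284.7). With unlike highest signals and genes, these 2 shares do not measure a change. The probe set shared with S100a11, counted for no gene, reached 38.3% of the highest signal on day 1.

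**Figure D1:**
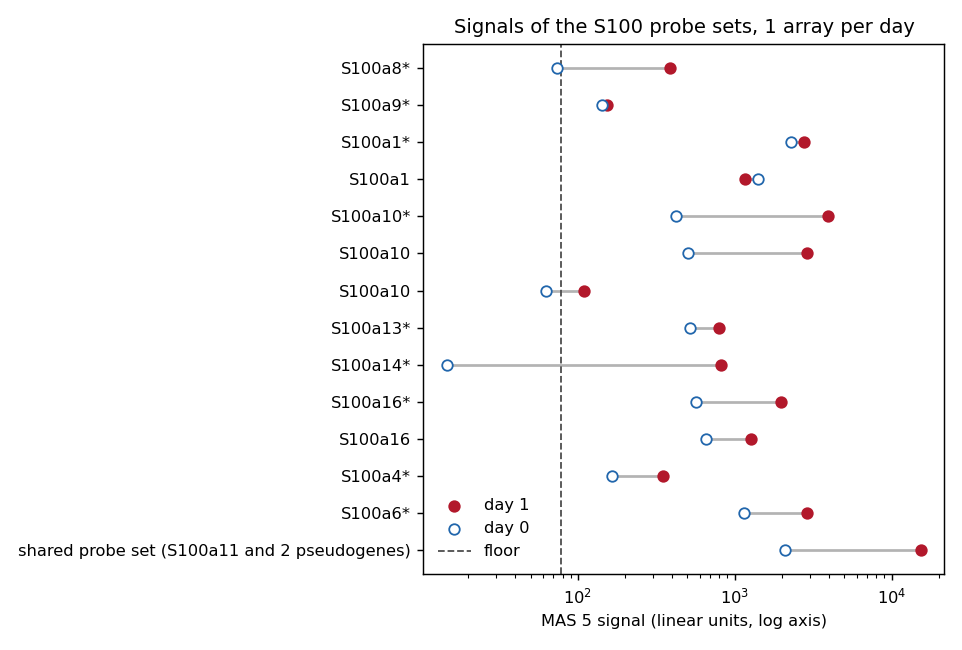
MAS 5 signal (log axis) of each S100 probe set, with a filled point for the day 1 array, an open point for the day 0 array and a dashed line at the floor of 77.7. An asterisk marks the probe set that stands for its gene, by the highest mean over both days. S100a14 lies at 814.2 on day 1 and far below the floor on day 0, while the points of S100a9 nearly coincide.

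The pair of calprotectin genes differed from each other. S100a8 had a signal of 386.0 on day 1, against 73.9 on day 0, which lies just under the floor. It was therefore at least 4.97-fold higher, a bound set by the floor. With the floor at the 75th percentile of all signals the bound was 0.63 log2, under 2-fold. S100a9 had 154.5 on day 1, against 142.7 on day 0, a 1.08-fold difference and a log2 ratio of 0.11. The signals of S100a9 thus lay close together, and those of S100a8 did not. S100a8 is read by 1 probe set of the kind that several transcripts may share (suffix _s_at), and S100a9 by 1 that is not. On day 1, 81.6% of all probe sets were dimmer than that of S100a8 and 68.0% dimmer than that of S100a9. On day 0 the shares were 43.1% for S100a8 and 61.9% for S100a9.

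Promoters of this pair are shown because the 2 genes are neighbours with unlike ratios. The letters run 5′ to 3′ from 250 bases before to 30 after the annotated start (RefSeq, GRCm38.p6). Capitals mark matches, on either strand, to 5 motifs: C/EBP as TTGCNNAA, AP-1 as TGANTCA, STAT as TTCNNNGAA, the TATA box as TATAAA and the GC box as GGGCGG. No matches overlap in the windows shown.
S100a8, chr3:90668821-90669100, strand plus: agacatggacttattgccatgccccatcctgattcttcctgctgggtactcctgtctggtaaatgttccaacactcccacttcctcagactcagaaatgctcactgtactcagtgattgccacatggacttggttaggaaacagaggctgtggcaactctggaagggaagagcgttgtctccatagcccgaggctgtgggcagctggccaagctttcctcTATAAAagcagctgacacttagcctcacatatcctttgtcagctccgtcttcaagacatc
S100a9, chr3:90695692-90695971, strand minus: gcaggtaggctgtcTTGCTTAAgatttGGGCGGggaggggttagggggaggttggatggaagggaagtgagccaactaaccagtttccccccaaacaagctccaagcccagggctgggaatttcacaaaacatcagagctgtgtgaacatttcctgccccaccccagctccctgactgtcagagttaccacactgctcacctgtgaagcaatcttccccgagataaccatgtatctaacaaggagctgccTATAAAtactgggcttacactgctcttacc
A TATA box stood 30 bases before the start of S100a8 and directly at the annotated start of S100a9. The S100a9 window also held a C/EBP match and a GC box. Among all 32851 promoter windows of the same length, 13.1% held the TATA box letters, 10.4% the C/EBP letters and 34.7% the GC box. A match is a string of letters and says nothing of binding.

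Most other neutrophil genes were dim on both arrays. Of 15 neutrophil markers on the array, 8 were at the floor on both days, namely Mpo, Elane, Ctsg, Camp, Cxcr2, Itgam, Cd177 and Mmp8. Of the 7 measured markers, 0 were at least 2-fold higher, beside 10.4% of all measured genes. With a floor at the 25th percentile 1 of 13 was higher, beside 12.0%. Of all 18193 named genes, 13239 were measured. Mmp9, a gelatinase, was at least 2.03-fold lower, with signals of 32.3 on day 1 and 157.8 on day 0, and was under 2-fold lower under each of the 6 scalings. Csf3r, the receptor of granulocyte colony-stimulating factor, had 45.5 on day 1 and 151.0 on day 0, and the granule protein gene Ngp had 105.1 on day 1 and 187.0 on day 0. Clec4d, above the floor on both days, had a log2 ratio of -0.08. Il1r2 was lower by a bound of -0.34, and Prtn3 (84.3 on day 1, 16.3 on day 0) and Fpr2 (85.8 on day 1, 77.7 on day 0) were higher by at least 0.12 and 0.14 log2. With 5 of the 7 known only as bounds, their differences could be larger than given. Signals of the 15 genes summed to 822.8 on day 1 and 1118.5 on day 0. The list median of -0.34 was above 0 after median centring (0.07), quantile normalization (0.07), loess (0.13) and hybridisation control scaling (0.37).

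Macrophage and monocyte markers were measured in 16 of 16 cases, with a median log2 ratio of 0.37. Past 2-fold were 4 on the higher side and 1 on the lower, beside 10.4% and 13.3% of all measured genes. Cd14, the lipopolysaccharide co-receptor, had 29010.6 on day 1 and 3816.8 on day 0. Cd68 was 2.94-fold, the lysozyme gene Lyz2 2.22-fold and the mannose receptor gene Mrc1 2.01-fold higher, whereas C1qa, which encodes a complement subunit, was 2.35-fold lower. The macrophage surface marker Adgre1 had 375.2 on day 1 and 665.6 on day 0, so the list held both directions. Median centring gave 8 higher and 0 lower, and hybridisation control scaling 11 higher and 0 lower. Of all measured genes, 28.0% and 48.7% were at least 2-fold higher under these scalings. Log2 ratios of the remaining 10 (Ms4a7, Cd74, C1qb, Csf1r, Cx3cr1, Cd163, C1qc, Fcgr1, Ccr2 and Aif1) ran from -0.42 to 0.79 at their brightest probe sets. For Csf1r, a dimmer probe set had 252.7 on day 1 and 549.7 on day 0, a log2 ratio of -1.12, and another had 0.45. Signals of the list summed to 41933.8 on day 1 and 13395.1 on day 0, and Cd14 made up most of it on day 1. What part these cells have in the S100a8 signal was not tested.

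S100a14 had the lowest day 0 signal of the members. Its product is an S100 protein of epithelial cells. It had 814.2 on day 1, against 14.7 on day 0, so it was at least 10.5-fold higher, a bound set by the floor. Its day 0 value was exceeded by most probe sets on that array, with only 15.8% below it, whereas 90.1% lay below its day 1 value. A single probe set reads S100a14.

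S100a10, the annexin A2 partner, had the highest ratio among the members above the floor on both days. Its brightest probe set had 3921.5 on day 1 and 423.0 on day 0, which is 9.27-fold higher. That probe set may cross-react with other transcripts (suffix _x_at). A second probe set without that suffix had 2871.8 on day 1 and 504.0 on day 0, a 5.70-fold difference. The third was dim, at 109.0 on day 1 and 62.9 on day 0, a log2 ratio of at least 0.49. All 3 were brighter on day 1, and the size of the difference depended on the probe set. The probe set shared by S100a11, S100a11-ps and Gm12854 had 15354.6 on day 1 and 2094.4 on day 0, 7.33-fold higher. Which of the 3 loci gave that signal cannot be told apart here.

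S100a16, an S100 protein with a reduced calcium site, had 1972.0 on day 1 and 565.5 on day 0 and was 3.49-fold higher. Its other probe set had 1278.5 on day 1 and 655.8 on day 0, 1.95-fold higher, so the gene passes 2-fold at 1 probe set and falls just short at the other. S100a6, calcyclin, had 2900.1 on day 1 and 1144.7 on day 0, a 2.53-fold difference. S100a4, known from fibroblasts and migrating cells, had 347.4 on day 1 and 164.3 on day 0, a 2.11-fold difference close to the threshold (0.47 log2 with the floor at the 75th percentile). These 3 genes lie close together on chromosome 3, and their promoters follow because all 3 passed 2-fold in the same direction. S100a16 has 2 annotated starts. The window of the second is printed for its matches, and the window of the first (chr3:90537004-90537283) held none of the 5 motifs.
S100a16, chr3:90540896-90541175, strand plus: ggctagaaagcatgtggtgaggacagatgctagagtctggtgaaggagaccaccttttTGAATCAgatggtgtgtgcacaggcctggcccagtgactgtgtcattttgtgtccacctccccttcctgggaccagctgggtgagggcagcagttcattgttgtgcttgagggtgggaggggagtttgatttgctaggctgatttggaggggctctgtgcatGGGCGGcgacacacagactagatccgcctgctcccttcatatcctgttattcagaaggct
S100a6, chr3:90612644-90612923, strand plus: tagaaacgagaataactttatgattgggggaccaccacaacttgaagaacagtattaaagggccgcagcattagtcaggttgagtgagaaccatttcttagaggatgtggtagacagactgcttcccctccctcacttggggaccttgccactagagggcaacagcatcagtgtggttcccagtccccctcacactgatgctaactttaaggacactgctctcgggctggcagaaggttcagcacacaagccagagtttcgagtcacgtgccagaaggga
S100a4, chr3:90603520-90603799, strand plus: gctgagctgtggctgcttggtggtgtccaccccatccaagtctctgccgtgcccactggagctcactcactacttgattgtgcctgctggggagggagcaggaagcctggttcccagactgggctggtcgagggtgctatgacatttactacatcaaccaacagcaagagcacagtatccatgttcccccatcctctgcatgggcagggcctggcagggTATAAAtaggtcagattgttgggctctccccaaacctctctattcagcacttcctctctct
The S100a16 window held an AP-1 match 192 bases before the start and a GC box, and S100a4 a TATA box 31 bases before its start. None of the 5 motifs was found in the S100a6 window. AP-1 letters occurred in 7.46% of all promoter windows and STAT letters in 7.83%. In the 9 windows of the 8 members with an entry, AP-1 letters were present for 2 genes (S100a16 and S100a11) and STAT letters for 0. S100a10 and S100a14 had no entry, so these counts do not cover them.

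Ratios were smallest, among the epithelial and stromal members, for the last pair. S100a13, which takes part in the export of Fgf1 and interleukin 1 alpha, had 792.9 on day 1 and 517.1 on day 0, a 1.53-fold difference. S100a1, known for calcium handling in heart and muscle, had 2750.3 on day 1 and 2284.7 on day 0 at its brighter probe set, with a log2 ratio of 0.27. Its other probe set ran the opposite way, with 1164.3 on day 1 and 1415.7 on day 0 and a log2 ratio of -0.28. The direction of S100a1 therefore rests on the choice of probe set. S100a1 and S100a13 are transcribed from opposite strands, and their promoter windows share 164 bases.

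Set against each other, the myeloid pair had a median log2 ratio of 1.21 and the 7 measured epithelial and stromal members one of 1.34, a difference of -0.13. Its sign turned after quantile normalization (0.17) and loess (0.24). In the myeloid pair 1 of 2 genes passed 2-fold, and among the others 5 of 7, beside 10.4% of all measured genes. S100a8, the 1 of the pair, and S100a14, among the 5, were at the floor on day 0, so their direction was fixed. The pair's median averages the bound of S100a8 (2.31) with the ratio of S100a9 (0.11). That median and the difference as deposited are therefore lower bounds. Each set held ratios near 0 and ratios above 2, so the sets overlapped.

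**Figure D2:**
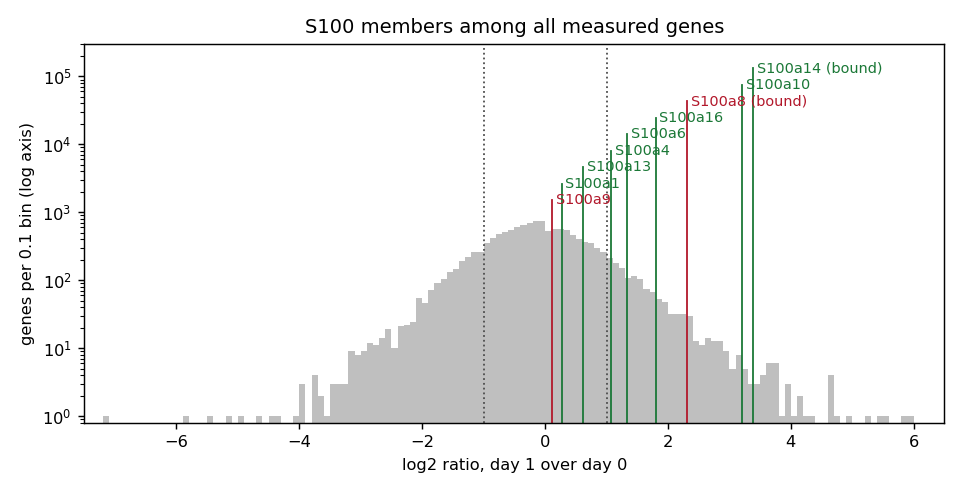
Number of genes per 0.1 bin of log2 ratio, day 1 over day 0, for all 13239 measured genes (grey, log axis), with a line for each member, red for S100a8 and S100a9 and green for the others; line height carries no value. Dotted lines mark 2-fold, and 6 members lie to the right of the upper one and 0 to the left of the lower one.

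The rest of the S100 family was dim where a probe set of its own was present. S100a2, S100a7a, S100z, S100p and the fused-type genes Flg2 and Crnn had none, so they have no value here. S100a3, S100a7l2, S100b and S100g were at the floor on both days, as were the related fused-type genes Flg, Hrnr and Tchhl1, whose products join an S100 domain to a long repeat. S100a5 had 47.9 on day 1 and 184.8 on day 0 and was at least 2.38-fold lower, though under 2-fold after median centring and hybridisation control scaling. Rptn and Tchh, also fused-type, had bounds of -0.70 and -0.22 log2. Thus 3 of 10 such genes were measured, all of them through the day 0 array alone, so their direction was fixed by the floor.

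Proteins known to bind S100 members gave a mixed picture. Of 20 partner and receptor genes on the array 17 were measured, with a median log2 ratio of 0.40. Of the 17, 5 were higher by 2-fold or more and 2 lower, beside 10.4% and 13.3% of all measured genes. The counts were 9 higher and 1 lower after median centring, and 12 and 0 under hybridisation control scaling. Of all measured genes, 28.0% and 48.7% were higher by 2-fold or more under these scalings. Anxa1, the partner of S100A11, had 9399.1 on day 1 and 774.0 on day 0, 12.1-fold higher. Anxa2, the partner of S100A10, had 3891.3 on day 1 and 829.2 on day 0, 4.69-fold higher, and its probe set of 240.4 on day 1 and 82.5 on day 0 had a log2 ratio of 1.54. Ahnak, a large scaffold that binds the S100A10 and annexin A2 complex, was 5.63-fold higher. Anxa2 and Ahnak thus differed in the same direction as S100a10.

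Myh9, the non-muscle myosin heavy chain bound by S100A4, had 4056.6 on day 1 and 1903.6 on day 0, 2.13-fold higher, and its 4 measured probe sets had log2 ratios of 1.09 to 2.22, the highest a bound. Myh10, another such chain, had a log2 ratio of 0.23. Anxa6 was 2.11-fold higher at its brightest probe set, while its 3 dimmer ones lay between -0.30 and 0.21 log2. Cacybp and Sugt1, which bind S100A6, had 0.53 and 0.40 log2, and a dimmer Sugt1 probe set had a bound of -0.47 log2. Fgf1, exported with S100A13, was 2.73-fold lower, with 139.5 on day 1 and 381.4 on day 0. Il1a was at the floor on both days, and Syt1, of the same export complex, had a bound of -0.80 log2.

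Receptors of S100A8 and S100A9 were not alike either. Tlr4 had 404.7 on day 1 and 215.3 on day 0, a log2 ratio of 0.91, and Ager, which encodes the receptor for advanced glycation end products, was at the floor on both days. Cd36, which also takes up fatty acids, had 7169.1 on day 1 and 24096.8 on day 0, 3.36-fold lower. Bsg, which encodes basigin, had a log2 ratio of -0.57 and the oxidase subunit gene Cybb one of -0.10. The dimmer Cybb probe sets had 0.76 and -0.58. The plasminogen activator gene Plat (-0.54), the calcium channel gene Trpv6 (-0.06) and the calcium pump gene Atp2a2 (0.45) were under 2-fold, and Ryr2 was at the floor on both days. Outside the S100 family, 16 other genes for calcium-binding proteins, most of them of the EF-hand class, were measured. The median log2 ratio of the 16 was 0.45. Past 2-fold were 5 on the higher side and 0 on the lower, beside 10.4% and 13.3% of all measured genes. The 5 were Capn2 (3.30-fold), Capn1 (at least 3.16-fold), Rcn2 (2.60-fold), Capns1 (2.52-fold) and Sri (2.16-fold). After median centring 9 were higher, beside 28.0% of all measured genes. Under hybridisation control scaling 13 were, beside 48.7% of all measured genes.

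**Figure D3:**
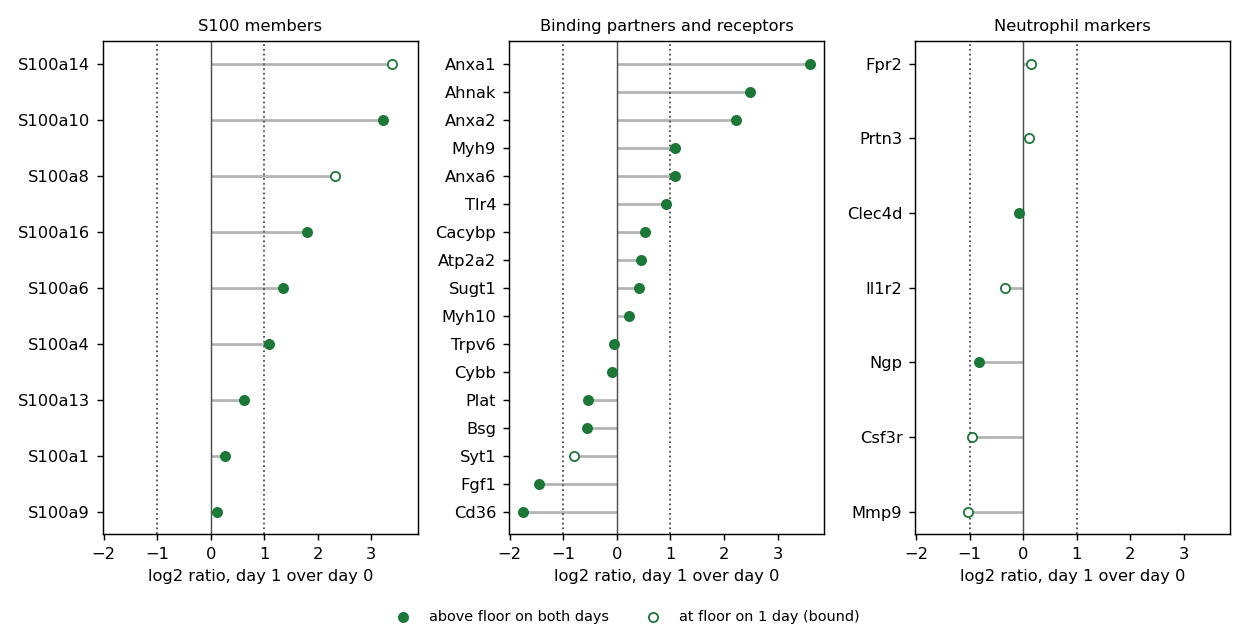
Log2 ratio, day 1 over day 0, of the measured S100 members, of the measured binding partners and receptors, and of the measured neutrophil markers; open points are bounds, and dotted lines mark 2-fold. Anxa1, Ahnak and Anxa2 lie highest among the partners, and 0 of the 7 neutrophil markers, 5 of them drawn at bounds, reach the upper line.

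Most members lie in a row on chromosome 3. In the RefSeq annotation the order is S100a1, S100a13, S100a14, S100a16, S100a3, S100a2, S100a4, S100a5, S100a6, S100a7a, S100a8 and S100a9, and S100a11 and S100a10 follow after 56 other protein-coding genes. Ratios varied along this row. S100a14, at least 10.5-fold higher, lies between S100a13 at 0.62 log2 and S100a16 at 1.80. S100a5, lower on day 1, lies between S100a4 and S100a6, both higher. S100a8 and S100a14 counted as measured through day 1 alone and S100a5 through day 0 alone, so their directions were fixed by the floor. For genes of the row above the floor on both days, log2 ratios ran from 0.11 (S100a9) to 1.80 (S100a16). The 56 genes in between include those of the cornified envelope of skin. Of the 36 genes from Lor to Tchhl1 with a probe set, 23 were at the floor on both days, and 13 were measured. Day 1 signals of 11 of the 13 did not exceed the floor, so those genes counted as measured through day 0 alone and could only have ratios below 0. Lor and Sprr2k, above the floor on both days, had log2 ratios of -1.32 and -0.06. The bound was at most -2.10 for Lce3b and at most -1.11 for Kprp, and for Lelp1, Sprr2d, Sprr2h, Sprr1a, Lce1g, Lce1i, Lce3a, Rptn and Tchh the bounds ran from -0.73 to -0.09. The brightest signal of all 13 on either day was 340.1, that of Lor on day 0. Before S100a1, Snapin was 2.82-fold higher, Chtop had 0.48 log2 and Ilf2 -0.64, and past S100a10 Tdpoz1 had a bound of -0.50.

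**Figure D4:**
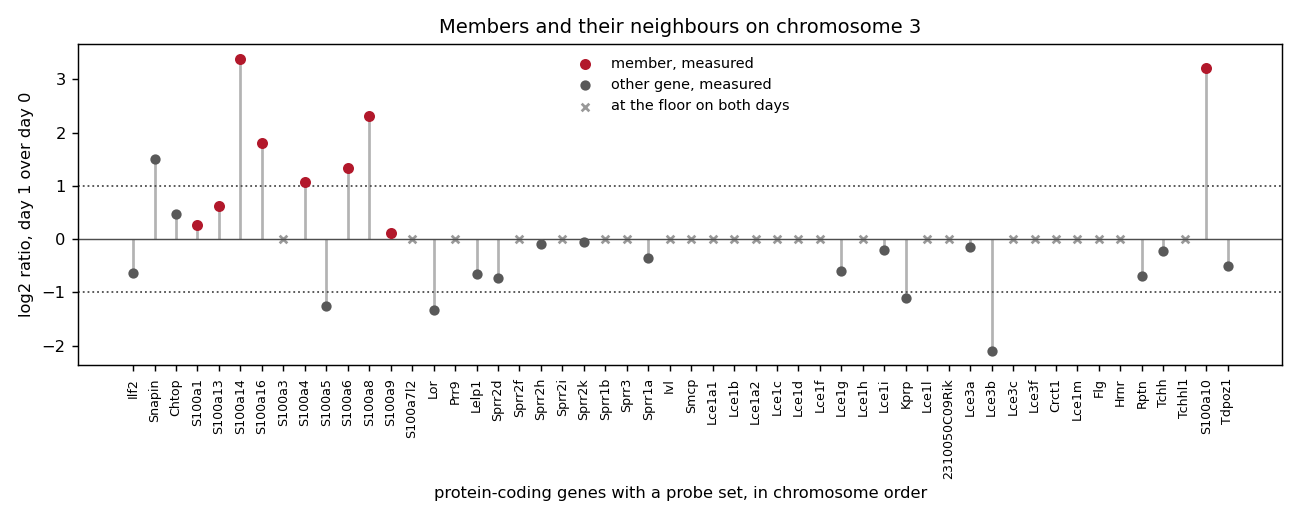
Log2 ratio, day 1 over day 0, of protein-coding genes with a probe set in their order along chromosome 3 (red, members; dark grey, other measured genes; crosses, genes at the floor on both days, drawn at 0). Of the members, 6 stand above the upper 2-fold line (dotted), as does Snapin. Genes at the floor on 1 day are drawn at their bound, which holds for 11 of the 13 measured genes from Lor to Tchh, whose points could only fall below 0.

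Markers of the cells that could carry these transcripts also differed between the arrays. Over all measured genes, 10.4% were higher by 2-fold or more and 13.3% lower as deposited. The median log2 ratio of luminal epithelial markers was 2.66, and 8 of 13 measured genes were higher by 2-fold or more and 1 lower. The highest were Cldn4 (5.28 log2), Krt7 (4.15) and Krt19 (2.92). Elf5 (-1.08), Ehf (-0.65), Muc1 (-0.41) and Gata3 (-0.13) were below 0. Together the luminal signals came to 105510.3 on day 1 and 53728.2 on day 0. For fibroblast markers the median was 0.58 and 5 of 15 were higher and 0 lower. The highest were Thy1 (1.55), Mgp (1.54) and Pdgfrb (1.46), while Fbln1 (-0.71) and Dcn (-0.45) were below 0. Median centring gave 10 fibroblast markers higher, beside 28.0% of all measured genes, and hybridisation control scaling 13, beside 48.7%. Signals of the fibroblast list summed to 35619.4 on day 1 and 25602.6 on day 0. Myoepithelial markers passed 2-fold in 0 of 10 cases in either direction, and their largest ratios were those of Trp63 (-0.95), Tagln (0.77) and Oxtr (-0.71). Past 2-fold on the higher side were 2 after ribosomal protein scaling, 4 after median centring and 6 under hybridisation control scaling. Of all measured genes, 19.8%, 28.0% and 48.7% were past it in these settings. Among keratinocyte markers, Sbsn (4.75) and Dmkn (3.99) were higher and Casp14 (113.3 on day 1, 453.6 on day 0) and Lor lower, while Krt1, Krtdap, Ivl, Dsc1, Dsg1a and Lce1a1 were at the floor on both days. The part of these cells in the S100 ratios was not tested.

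Counts of the other lists stand beside 10.4% of all measured genes at least 2-fold higher and 13.3% lower as deposited. Adipocyte markers had 0 of 8 higher and 1 lower, with Lpl at -2.14, Lep at 0.93 and Cidec at -0.64. Endothelial markers had 1 of 8 higher and 1 lower, with Cldn5 at 1.03, Kdr at -1.01 and Emcn at -0.68. Nerve markers had 0 of 4 higher and 1 lower, with Sox10 at -1.35, Mbp at 0.73 and Pmp22 at 0.59. Skeletal muscle markers, of a tissue that is rich in S100a1, had 0 of 8 in either direction, led by Tnni2 (0.74), Myh1 (0.65) and Ckm (-0.55). Scaling on the hybridisation controls put 4 adipocyte, 4 endothelial, 2 nerve and 6 muscle markers past 2-fold on the higher side. It did so for 48.7% of all measured genes. As a check of the tissue, the 7 genes of milk proteins were among the brightest on both days. They summed to 256179.8 on day 1 and 628904.9 on day 0, with a median log2 ratio of -1.27 and 7 past 2-fold lower. That median was -0.62 after median centring, -0.03 after quantile normalization, -0.84 after loess and -0.11 under hybridisation control scaling. In each of these settings 0 were past 2-fold. Ribosomal protein scaling left 1 past 2-fold lower (median -0.87) and housekeeping scaling 7 (median -1.21). All 7 also stayed past it under each floor and probe set setting.

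The arrays differed in ways that touch every ratio. Bacterial hybridisation controls, usually spiked in equally, were dimmer on day 1, with a median log2 ratio of -1.16 over 15 probe sets. The 3′ to 5′ signal ratio, a sign of RNA quality, for beta-actin was 1.51 on day 1 and 2.50 on day 0. For pyruvate carboxylase it was 7.86 on day 1 and 13.5 on day 0, and for Gapdh 1.48 on day 1 and 1.52 on day 0. Genes at least 2-fold higher were 43.8% of those past 2-fold as deposited and 95.5% after scaling on the hybridisation controls, which raised the median of all genes to 0.97. Relative to that median, a scaling by 1 factor cancels by construction, apart from the floor. The median of the members stood 1.46 above that of all genes as deposited and 1.53 above it after scaling on the controls. It stood 1.24 above after quantile normalization, 1.22 after loess and 0.92 with the floor at the 75th percentile. The part of RNA quality in these ratios was not tested.

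**Figure D5:**
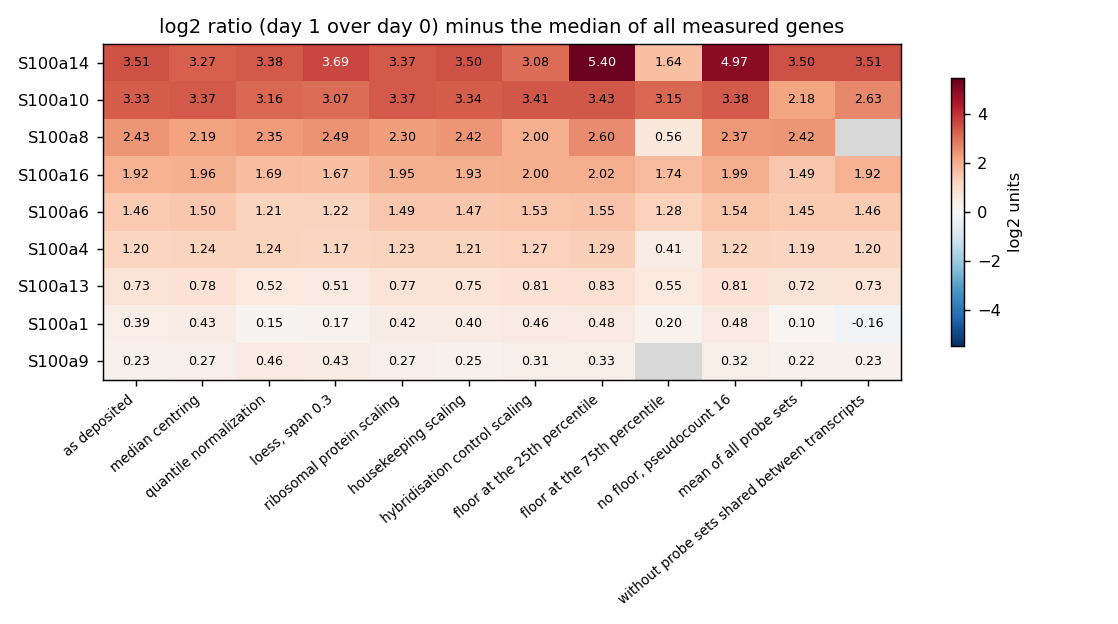
Log2 ratio, day 1 over day 0, of each measured member minus the median of all measured genes under each processing setting (columns), coloured by value; grey cells have no value. S100a10 stays above 2 in every column, S100a1 drops to -0.16 without probe sets shared between transcripts, and S100a8 to 0.56 with the higher floor.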

How the data were processed

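RNA of mammary gland pools of 5 mice, taken 1 day after forced weaning and on the day of weaning, was read on 1 array per day. The deposited intensity values are signals that the authors computed, per the labels, with the Microarray Suite 5.0 of Affymetrix, named MAS5 in the submitters' processing notes. For the target of its scaling, no value is given in the sources used. Both arrays had a mean of 250 after 2% was trimmed at each end, so 1 factor had been applied per array, which carries differences in background or RNA content into every ratio. The depth of an array is fixed, and the number of arrays limits the precision.

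From the deposited signals, without 64 control probe sets, log2 ratios were computed with Python 3.11.15 and pandas 2.3.3 after a floor of 77.7. The probe set of highest mean signal stood for a gene. Of 45037 probe sets, 34945 had 1 symbol in the platform annotation, 932 several and 9160 none, and 34741 were updated through RefSeq gene identifiers (GRCm38.p6). Coordinates belong to RefSeq and not to the array. Members, lists, motifs and settings were chosen with earlier results of these data known. Every member was named whatever its values, as were the measured partners and neighbours, all other S100 genes, and all neutrophil and macrophage markers. Of each other marker list the 3 largest absolute ratios were named, with the luminal and fibroblast markers below 0. No gene was named for a pattern like a member's, since 2 arrays give 1 ratio. Fold calls were counted at 2-fold with no test. The ratio step was tested on simulated data. Alternatives were 6 scalings, 3 floor settings, 2 probe set rules and thresholds of 1.5-fold and 3-fold. Adding the probe set shared with S100a11 was chosen after the data were seen. Log2 ratios of probe sets of one gene had a pooled SD of 0.56 over 3943 genes, which describes probe sets and not mice.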

Additional observations from a re-analysis of the deposited data

How the results depend on the processing

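No paired analysis was possible because each day has 1 array. Of the 9 measured members, S100a6, S100a10, S100a14 and S100a16 were at least 2-fold higher in all settings of scaling, floor and probe set choice. S100a8 and S100a4 fell under 2-fold with the floor at the 75th percentile (0.63 and 0.47 log2), where S100a9 was not measured, and S100a8 had no value without probe sets shared between transcripts. S100a1 was at -0.01 with the mean of all probe sets and -0.28 without shared ones. Relative to the median of all genes, S100a14 ranged from 1.64 to 5.40, S100a10 from 2.18 to 3.43 and S100a6 from 1.21 to 1.55. The count of members at least 2-fold higher ranged from 4, with the higher floor or a 3-fold threshold, to 9 under hybridisation control scaling. It was 7 with the shared S100a11 probe set added. The share of all measured genes was 10.9% with the higher floor, 3.85% at 3-fold and 48.7% under hybridisation control scaling. The count of members lower was 0 throughout. The members' median was 1.99 after median centring and 2.50 under hybridisation control scaling. The myeloid difference turned to 0.17 after quantile normalization and 0.24 after loess, and was -0.71 with the higher floor and -1.23 without shared probe sets, which leave S100a9 alone in the pair. Of all genes, the counts higher and lower were 3631 and 685 after median centring, 2580 and 1018 after ribosomal protein scaling, and 6292 and 295 under hybridisation control scaling. They were 852 and 606 with the higher floor, 872 and 1115 with the mean of probe sets, 2699 and 3602 at 1.5-fold and 510 and 573 at 3-fold. With the lower floor 4306 were lower, and with no floor 4098. Genes higher were 84.1%, 71.7%, 58.4%, 31.6% and 31.7% of those past 2-fold after median centring, ribosomal protein scaling, the higher floor, the lower floor and no floor. Apart from the construction of each setting, the cause of these moves was not tested. Signals near the floor, such as those of S100a8 and S100a9, limit what can be read from them.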
